A study of Mus musculus with 11 samples.

Results

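The sarcomere is the contractile unit of the cardiomyocyte, in which myosin thick filaments pull on actin thin filaments that are anchored at the Z-disc, while the M-band holds the thick filaments in register. Troponin and tropomyosin on the thin filament make this pull depend on calcium, and titin spans each sarcomere from Z-disc to M-band as a spring. Mouse hearts change isoforms of several of these proteins between embryo and adult, among them the myosin heavy chains Myh7 and Myh6 and the troponin I forms Tnni1 and Tnni3.

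The transcripts described here are 35 genes of the sarcomere and Z-disc, of 55487 genes in the count files. They were chosen by function, as 9 genes of the thick filament with titin, 9 of the thin filament, 15 of the Z-disc and the structures linked to it, and 2 of the M-band, together with the ratios Myh7 to Myh6 and Tnni1 to Tnni3. The choice was made with earlier results of these data known. RNA was sequenced from whole hearts of mouse embryos at E14.5, in mid-gestation, with 1 library per heart, from 5 Pde2A-/- embryos (replicates A, B, 14, D and 15) and 6 Pde2A+/+ embryos (replicates 7, 11, 6, 8, H and E). The strain was B6;129P2-Pde2A<tm1Dgen>, which carries a targeted allele of Pde2A, a phosphodiesterase that breaks down cAMP and cGMP, so the loss is not limited to the heart. The labels name no treatment, and per the study's methods embryos of both genotypes came from heterozygous matings and hearts of both sexes were used, without the sex or litter of single hearts. The comparison asks which sarcomere transcripts differ between hearts without and with Pde2A.

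Each library held between 35865537 and 42835382 reads counted on genes, and the totals did not differ between genotypes beyond their spread (two-sided exact permutation test, p = 0.870). All 35 members passed the filter on low values (10 or more counts summed over the 11 hearts), as did 24177 genes in all, and 34 of them averaged 50 CPM (counts per 1000000 reads, scaled by TMM) or more, the exception being Xirp2. The members took 5.21% to 5.71% of the reads in Pde2A-/- hearts and 5.37% to 6.95% in Pde2A+/+ hearts, and cardiac transcripts such as Actc1, Myh7 and Tnnt2 were high in every heart. Under its identifier Pde2a had 4 counts over the 5 Pde2A-/- hearts and 3 over the 6 Pde2A+/+ hearts. These counts cannot check the genotype labels, and how far they reflect the level of Pde2a was not tested. Pde2A+/+ replicate 7 stood apart in lung and thymus markers. Their summed level was 49.3 CPM there, 5.27 CPM in Pde2A+/+ replicate 11 and at most 0.30 CPM in every other heart. Liver markers summed to 111, 42.7 and 37.5 CPM in Pde2A+/+ replicates E, 11 and H and 42.1 CPM in Pde2A-/- replicate D. In the other hearts they summed to 2.63 to 6.31 CPM. Without Pde2A+/+ replicate 7 the counts of members called were the same, 13 lower and 1 higher. Whether the hearts came from separate litters is not stated, so p-values measure the spread between these 11 hearts.

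More sarcomere transcripts were lower than higher in Pde2A-/- hearts. Of the 35 members, 13 were lower and 1 was higher at an adjusted p under 0.05 (edgeR quasi-likelihood test, Benjamini-Hochberg over all genes tested, called edgeR adjusted p from here), and 21 did not pass. Over all genes tested 5.67% were lower and 8.93% were higher by the same rule, and among the 4685 genes that averaged 50 CPM or more the shares were 11.1% and 14.7%. The log2 difference (Pde2A-/- minus Pde2A+/+) was below 0 for 31 of 35 members, against 53% of all genes and 51.2% of those at 50 CPM or more, and its median was -0.19, against -0.023 over all genes. For 10 members every Pde2A-/- heart was below every Pde2A+/+ heart, 28.6% of the members against 3.11% of all genes and 5.36% of the genes at 50 CPM or more. The differences were small, and Myom2 alone passed a fold of 2, which 2.21% of all genes and 0.79% of those at 50 CPM or more did upward. In these whole hearts, fewer cells of a type and less RNA per cell cannot be told apart.

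**Figure D1:**
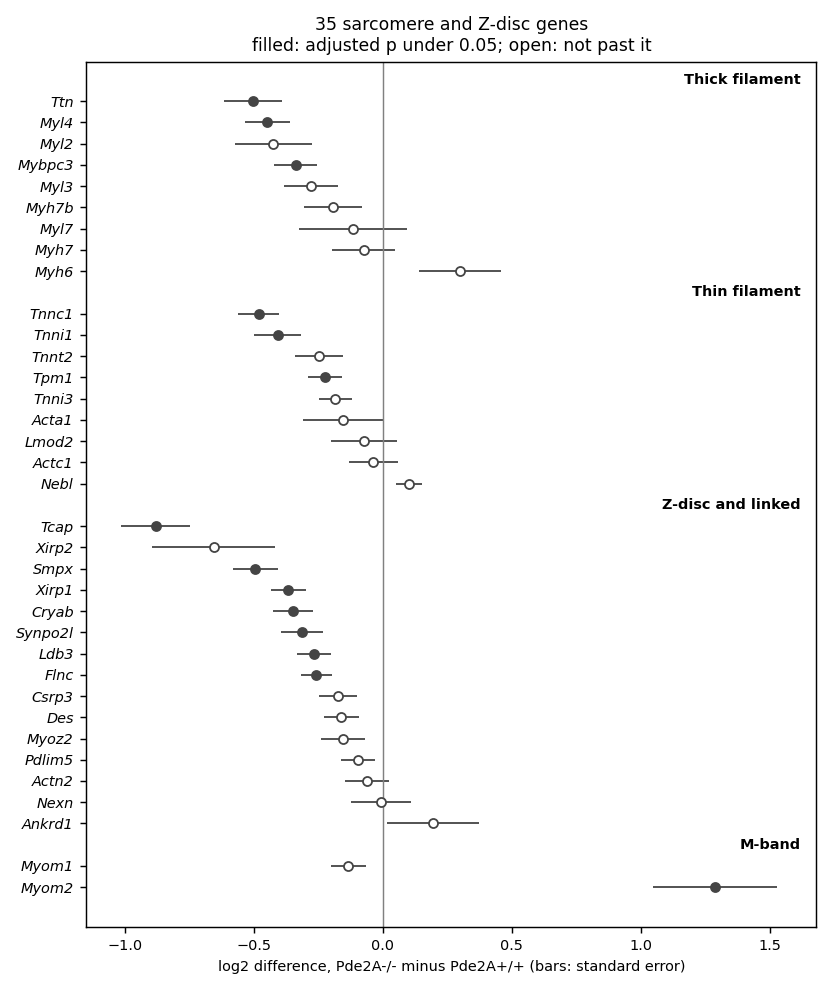
Log2 difference between genotypes (x axis, Pde2A-/- minus Pde2A+/+) for each of the 35 genes (rows, grouped by filament), with bars of 1 standard error and filled points for an edgeR adjusted p under 0.05. Most points lie left of 0, with Tcap at -0.88 farthest left and Myom2 at 1.29 farthest right.

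The 13 lower genes held 3 of 9 thick filament genes, 3 of 9 thin filament genes and 7 of 15 Z-disc genes. The median log2 difference was -0.28 over the thick filament genes, -0.18 over the thin filament genes and -0.26 over the Z-disc genes. Of the 13, 9 passed in each of the 11 fits that left out 1 heart.

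In the thick filament none of the myosin heavy chain genes passed the test, while Myl4, Mybpc3 and Ttn were lower. Myh7, the slow and fetal ventricular heavy chain, was at 12125, 12675, 12035, 12836 and 16016 CPM in Pde2A-/- replicates A, B, 14, D and 15, and between 10801 and 16883 (median 13842) CPM in the 6 Pde2A+/+ hearts. Every Pde2A-/- heart lay within the Pde2A+/+ range, and the log2 difference was -0.075 ± 0.12 (SE) with an edgeR adjusted p of 0.739. Myh6, the fast heavy chain of the atria and of the adult mouse ventricle, was at 3086, 2953, 5032, 3979 and 5286 CPM in the same order of Pde2A-/- hearts and between 2410.3 and 3870.2 (median 3352) CPM in Pde2A+/+ hearts. Replicates 14, D and 15 exceeded every Pde2A+/+ heart, while replicates A and B lay within the Pde2A+/+ range. Its log2 difference of 0.30 ± 0.16 did not pass (edgeR adjusted p = 0.225), and with the naming style of the replicates (letter or number) as a covariate it was 0.39 and passed, with an edgeR adjusted p of 0.0276. Myh7b, a further slow-type heavy chain, was at 71.2 ± 12.5 CPM (SD, n = 5) in Pde2A-/- hearts and 81.4 ± 10.3 CPM (SD, n = 6) in Pde2A+/+ hearts, with a log2 difference of -0.19 ± 0.11 that did not pass.

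These 3 myosin genes carry related microRNAs in their introns, and the sequences are shown because each of these loci makes both a heavy chain and a microRNA of a like seed. Mature sequences are from RefSeq, 5′ to 3′, with the seed (bases 2 to 8) in capitals. The first is in an intron of Myh6 (GRCm38, chr14:54949072-54949093, minus strand), the second in an intron of Myh7 (chr14:54975710-54975731, minus strand) and the third in an intron of Myh7b (chr2:155622893-155622913, plus strand).
miR-208a-3p: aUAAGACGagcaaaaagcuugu
miR-208b-3p: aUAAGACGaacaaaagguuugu
miR-499-5p: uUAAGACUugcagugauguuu
miR-208a-3p and miR-208b-3p share all 7 seed bases and 19 of 22 bases in all, and miR-208a-3p and miR-499-5p share 6 of 7 seed bases. Libraries of poly(A) RNA do not measure mature microRNAs, and the 3 hairpin genes had 0 to 6 counts per heart. Mhrt, an antisense transcript of the Myh7 locus chosen here after its values were seen, was at 9.94 ± 3.997 CPM (SD, n = 5) in Pde2A-/- hearts and 9.69 ± 3.76 CPM (SD, n = 6) in Pde2A+/+ hearts. It lies on the other strand than Myh7, and the counts used are strand-specific. Its exons overlap those of Myh7 in part, and it had 190 to 582 counts per heart against 397463 to 679355 for Myh7. How many of the Mhrt counts were Myh7 reads given the wrong strand was not tested.

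Among the myosin light chains, Myl4, the essential light chain of the atria and of the embryonic ventricle, was lower. It was at 1329, 1393, 1319, 1026 and 1155 CPM in Pde2A-/- replicates A, B, 14, D and 15 and between 1501 and 1879.6 (median 1713) CPM in Pde2A+/+ hearts, without overlap. The log2 difference was -0.45 ± 0.087 (edgeR adjusted p = 0.00593), a level 26.7% lower. Myl2, the regulatory light chain of the ventricle and 1 of the 3 members with the highest level per kilobase of exon, was at 3694, 3805, 2653, 2535 and 2223 CPM in Pde2A-/- hearts and between 3119 and 4754 (median 3838) CPM in Pde2A+/+ hearts. Replicates 14, D and 15 were below every Pde2A+/+ heart, and replicates A and B were near the Pde2A+/+ median. The log2 difference of -0.42 ± 0.15 did not pass (edgeR adjusted p = 0.0712), and it passed in 5 other settings, among them without replicate A (-0.51, edgeR adjusted p = 0.0332) and in DESeq2, the tool of the study (adjusted p = 0.0218). Myl3, the essential light chain of the ventricle, had a log2 difference of -0.28 ± 0.10 that did not pass in edgeR (edgeR adjusted p = 0.0902) and passed in 4 other settings, DESeq2 among them (adjusted p = 0.0400). Myl7, the regulatory light chain of the atria, varied most among the light chains within a genotype, from 534 to 1262 CPM in Pde2A+/+ hearts, and its log2 difference was -0.12 ± 0.21. Markers of the atria moved in part with genotype, and their role in these values was not tested. Their summed level over 8 genes ranged from 2162 to 3686 CPM in Pde2A-/- hearts and from 1243 to 2410 CPM in Pde2A+/+ hearts. Most of that sum was Nppa, a natriuretic peptide gene named after its values were seen, at a mean of 2746 CPM against 1501 CPM and a log2 difference of 0.87 (edgeR adjusted p = 0.00999). Of the other 7 genes Dkk3 was higher by 0.89 and Nr2f1 lower by a log2 difference of -0.77 (edgeR adjusted p = 0.00292 and 0.0133), and the remaining 5 did not pass.

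Titin and myosin-binding protein C, which lie along the thick filament, were both lower. Ttn was at 901, 958, 822, 733 and 829.1 CPM in Pde2A-/- replicates A, B, 14, D and 15 and between 936 and 1462 (median 1144) CPM in Pde2A+/+ hearts. Replicate B alone was above the lowest Pde2A+/+ heart, replicate 8. The log2 difference was -0.51 ± 0.11 (edgeR adjusted p = 0.0119). Mybpc3, a regulator of cross-bridge cycling, was at 2479, 2539.9, 2255, 2131 and 2235 CPM in Pde2A-/- hearts and between 2549.6 and 3470.5 (median 2782) CPM in Pde2A+/+ hearts. The groups did not overlap, by a narrow margin between replicate B and Pde2A+/+ replicate 11, and the log2 difference was -0.34 ± 0.084 (edgeR adjusted p = 0.0197). This call was lost without Pde2A-/- replicate 14 (edgeR adjusted p = 0.0536) or replicate D (edgeR adjusted p = 0.0549).

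On the thin filament neither actin passed the test, while troponin C, troponin I1 and tropomyosin were lower. Actc1, cardiac alpha-actin and the member with the highest level per kilobase, was at 6599, 7727, 8164, 7577 and 8388 CPM in Pde2A-/- replicates A, B, 14, D and 15 and between 6498 and 9498 (median 7714) CPM in Pde2A+/+ hearts. Every Pde2A-/- heart lay within the Pde2A+/+ range, and the log2 difference was -0.037 ± 0.094 (edgeR adjusted p = 0.843). Its sign turned when Pde2A-/- replicate A or Pde2A+/+ replicate 6 or 8 was left out. Acta1, the skeletal alpha-actin that fetal hearts also make, was at 120.2 ± 24.8 CPM (SD, n = 5) in Pde2A-/- hearts and 134 ± 29.5 CPM (SD, n = 6) in Pde2A+/+ hearts, with a log2 difference of -0.15 ± 0.16 that did not pass.

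Tnnc1, the calcium-binding troponin of heart and slow muscle, was at 1134, 1189, 1078, 944 and 977 CPM in Pde2A-/- hearts and between 1275 and 1692 (median 1455) CPM in Pde2A+/+ hearts. The groups did not overlap, and the log2 difference was -0.48 ± 0.080 (edgeR adjusted p = 0.00206), a level 28.4% lower. Tnni1, the slow skeletal troponin I of the embryonic heart, was at 1661, 1665, 1389.7, 1307 and 1205 CPM in Pde2A-/- hearts and between 1667 and 2109 (median 1901) CPM in Pde2A+/+ hearts. Replicates A and B lay just under the lowest Pde2A+/+ heart and the other 3 well below it, and the log2 difference was -0.41 ± 0.092 (edgeR adjusted p = 0.0127). Tnni3, the cardiac troponin I that replaces it after birth, was at 655, 713, 617, 632 and 639 CPM in Pde2A-/- hearts and between 659 and 815 (median 740.2) CPM in Pde2A+/+ hearts. Here 4 of 5 Pde2A-/- hearts were below every Pde2A+/+ heart, and the log2 difference of -0.18 ± 0.064 did not pass in edgeR (edgeR adjusted p = 0.0684) and passed in 7 other settings, DESeq2 among them (adjusted p = 0.0258). Dnaaf3 overlaps 4.17% of the exon bases of Tnni3 on the same strand.

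Tpm1, alpha-tropomyosin, was at 2613, 2926, 2772, 2499 and 2636 CPM in Pde2A-/- replicates A, B, 14, D and 15 and between 2774 and 3589 (median 3102) CPM in Pde2A+/+ hearts. Replicate B alone was above the lowest Pde2A+/+ heart. The log2 difference of -0.23 ± 0.065 passed (edgeR adjusted p = 0.0361), and it no longer passed in 9 of 23 other settings, among them every fit that left out Pde2A-/- replicate A, 14, D or 15 or Pde2A+/+ replicate 6, 8 or H (edgeR adjusted p = 0.0577 to 0.0947). Tnnt2, the cardiac troponin T, had a log2 difference of -0.25 ± 0.092 that did not pass in edgeR (edgeR adjusted p = 0.0874) and passed in 3 other settings, DESeq2 among them (adjusted p = 0.0396). Nebl, the nebulin-related protein at the Z-disc end of the thin filament, and Lmod2, which lengthens thin filaments at their pointed ends, had log2 differences of 0.10 ± 0.051 and -0.074 ± 0.13, and neither passed.

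At the Z-disc, Tcap (telethonin, which caps the titin ends) had the lowest log2 difference of all members. It lies at chr11:98383811-98384953 (GRCm38, plus strand) and was at 50.4, 55.0, 39.7, 38.2 and 37.3 CPM in Pde2A-/- replicates A, B, 14, D and 15 and between 69.8 and 109 (median 76.5) CPM in Pde2A+/+ hearts. The highest Pde2A-/- heart, replicate B, was below the lowest Pde2A+/+ heart, and replicates 14, D and 15 were lower than A and B. The log2 difference was -0.88 ± 0.13 (edgeR adjusted p = 0.00103), a level 45.7% lower, and it ranged from -0.97 to -0.78 when single hearts were left out.

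Smpx, a small muscle protein of the costamere and Z-disc region, lies on chromosome X and was at 299, 296, 229, 227 and 224 CPM in Pde2A-/- hearts and between 333 and 401 (median 357) CPM in Pde2A+/+ hearts. It did not overlap between genotypes, and replicates A and B again lay nearer to the Pde2A+/+ hearts than 14, D and 15. The log2 difference was -0.50 ± 0.087 (edgeR adjusted p = 0.00322), and with Xist, which is transcribed from the inactive X of female cells, as a covariate it was -0.50. Xirp1 (Xin), an actin-binding protein of intercalated discs, was at 257, 267, 243, 222 and 231 CPM in Pde2A-/- hearts and between 278 and 356 (median 311) CPM in Pde2A+/+ hearts, without overlap. Its log2 difference was -0.37 ± 0.069 (edgeR adjusted p = 0.00492). Xirp2, its relative, had the lowest level of the members per kilobase of exon and was at 1.93 ± 0.732 CPM (SD, n = 5) in Pde2A-/- hearts and 3.05 ± 0.747 CPM (SD, n = 6) in Pde2A+/+ hearts. Its log2 difference of -0.66 ± 0.24 did not pass (edgeR adjusted p = 0.0814), and it passed in 3 other settings, among them without replicate B (-0.92, edgeR adjusted p = 0.0113) and in DESeq2 (adjusted p = 0.0292).

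Cryab, a small heat shock protein that binds desmin and titin, was at 265, 309, 242, 230.5 and 232 CPM in Pde2A-/- replicates A, B, 14, D and 15 and between 292 and 353 (median 329.9) CPM in Pde2A+/+ hearts. Replicate B alone reached the Pde2A+/+ range, and the log2 difference was -0.35 ± 0.077 (edgeR adjusted p = 0.0122). Flnc, the muscle filamin that crosslinks actin at the Z-disc, was at 753, 756, 747, 699 and 724 CPM in Pde2A-/- hearts and between 804 and 1025 (median 872) CPM in Pde2A+/+ hearts. The Pde2A-/- hearts spanned a narrow range under all Pde2A+/+ hearts, with a log2 difference of -0.26 ± 0.061 (edgeR adjusted p = 0.0160). With counts scaled to 21 cardiomyocyte genes outside the sarcomere, the difference in Flnc was -0.22 and did not pass (edgeR adjusted p = 0.0806).

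Ldb3 (cypher, a PDZ-LIM protein that binds alpha-actinin) was at 613, 642, 579, 581 and 562 CPM in Pde2A-/- hearts and between 645 and 799 (median 700.3) CPM in Pde2A+/+ hearts, without overlap. Its log2 difference was -0.27 ± 0.066 (edgeR adjusted p = 0.0191), and without Pde2A-/- replicate 14 it did not pass (edgeR adjusted p = 0.0523). Synpo2l, an actin-associated protein of the Z-disc, was at 366, 431, 414, 383 and 407 CPM in Pde2A-/- hearts and between 451 and 614 (median 472) CPM in Pde2A+/+ hearts, also without overlap. Its log2 difference was -0.31 ± 0.080 (edgeR adjusted p = 0.0224), and without Pde2A-/- replicate D it did not pass (edgeR adjusted p = 0.0598).

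**Figure D2:**
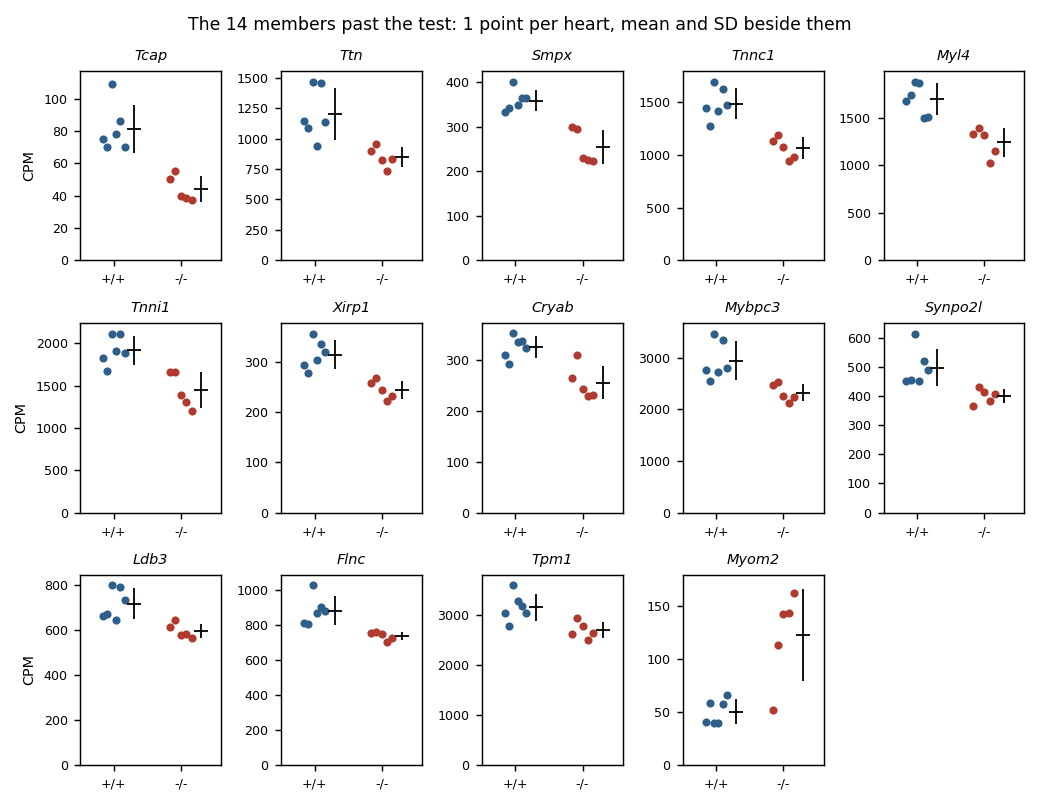
Level in CPM (y axis, from 0) of the 14 genes past an edgeR adjusted p of 0.05, 1 point per heart, Pde2A+/+ at left and Pde2A-/- at right of each panel, with the mean and SD beside the points. Tcap fell from a mean of 81.3 to 44.1 CPM without overlap, while Myom2 exceeded the highest Pde2A+/+ heart in 4 of 5 Pde2A-/- hearts.

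The remaining 7 Z-disc genes did not pass (edgeR adjusted p = 0.127 to 0.979). Actn2, the alpha-actinin that crosslinks thin filaments, was at 1679 ± 139 CPM (SD, n = 5) in Pde2A-/- hearts and 1752 ± 225 CPM (SD, n = 6) in Pde2A+/+ hearts, with a log2 difference of -0.061 ± 0.086. Des, the intermediate filament protein desmin, Csrp3, the muscle LIM protein, and Myoz2, a calcineurin-binding partner of alpha-actinin, had log2 differences of -0.16 ± 0.068, -0.17 ± 0.075 and -0.15 ± 0.086. Pdlim5, a PDZ-LIM protein like Ldb3, had a log2 difference of -0.095 ± 0.066. Nexn, an actin-binding protein of the Z-disc, had one of -0.0068 ± 0.12, whose sign turned in 8 other settings, and Gm43185 overlaps 7.50% of its exon bases on the same strand. Ankrd1, a stretch-responsive ankyrin repeat protein bound to titin, ranged from 732 to 1411 CPM in Pde2A-/- hearts and from 795 to 1438 CPM in Pde2A+/+ hearts, with a log2 difference of 0.20 ± 0.18.

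Of the M-band genes, Myom2 was higher and Myom1 did not pass. Myom2, the M-protein of fast muscle and adult heart (chr8:15057653-15133541, plus strand), was also the only member called higher. It was at 51.8, 113, 143, 143 and 162 CPM in Pde2A-/- replicates A, B, 14, D and 15 and between 39.2 and 65.9 (median 48.8) CPM in Pde2A+/+ hearts. Replicate A lay within the Pde2A+/+ range and the other 4 exceeded all Pde2A+/+ hearts. The log2 difference was 1.29 ± 0.24 (edgeR adjusted p = 0.00474), and it was 1.17 to 1.49 when single hearts were left out, passing each time. Myom1, myomesin, the main M-band crosslinker, was at 944 ± 28.3 CPM (SD, n = 5) in Pde2A-/- hearts and 1036 ± 112 CPM (SD, n = 6) in Pde2A+/+ hearts, with a log2 difference of -0.13 ± 0.068 that did not pass (edgeR adjusted p = 0.199).

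**Figure D3:**
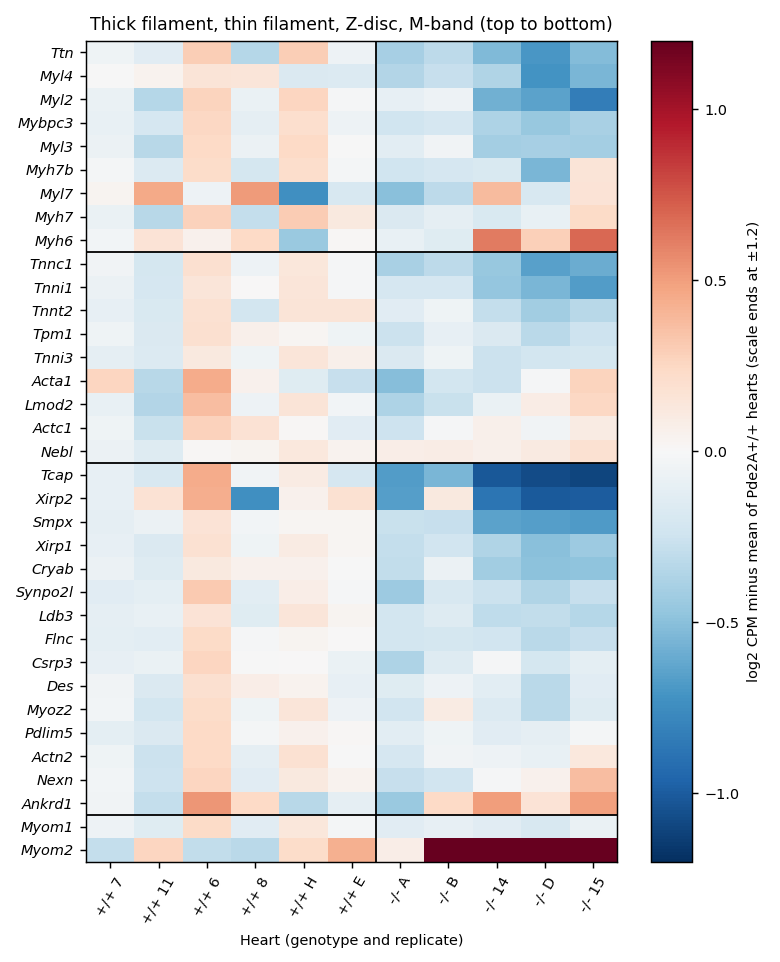
Log2 CPM of each of the 35 genes (rows) in each heart (columns) minus the mean of the Pde2A+/+ hearts, blue for lower and red for higher, with lines between filament groups and between genotypes. Pde2A-/- replicates 14, D and 15 are bluer than A and B for Tcap, Smpx, Tnni1 and Myl2, and Pde2A+/+ replicate 6 is red in most rows.

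The hearts of each genotype were not alike. The median log2 level over the 35 members was taken relative to the Pde2A+/+ mean. It was -0.24, -0.15, -0.23, -0.32 and -0.21 in Pde2A-/- replicates A, B, 14, D and 15, and -0.17 to 0.23 in Pde2A+/+ hearts. Over the 13 genes called lower, chosen by this same comparison, the median log2 level relative to the Pde2A+/+ mean was -0.29, -0.21, -0.37, -0.50 and -0.48 in those hearts, and -0.15 to 0.19 in Pde2A+/+ hearts. Replicate B was nearest to the Pde2A+/+ hearts, and Pde2A+/+ replicate 6 was the highest heart, with 6.95% of its reads on the members. Without replicate B 18 members were lower, without Pde2A-/- replicate 14 or D 10 were, and without Pde2A+/+ replicate 6 12 were.

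Ratios of 2 genes within a heart do not depend on library size, and 8 were tested with two-sided exact permutation tests of the mean log2 ratio over the 462 ways to split 11 hearts, adjusted by Benjamini-Hochberg over the 8. The smallest p this design allows is 0.00216. Counts rather than levels per length were divided, so only differences between hearts are read.

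The ratio of Myh7 to Myh6, the fetal over the adult myosin of the mouse, was 3.93, 4.29, 2.39, 3.23 and 3.03 in Pde2A-/- replicates A, B, 14, D and 15 and between 2.89 and 7.005 (median 4.26) in Pde2A+/+ hearts. The groups overlapped, and the log2 ratio differed by -0.33 (p = 0.225, adjusted p = 0.323, exact permutation test). Within the letter-named hearts the log2 difference was -0.56 and within the number-named hearts -0.42 (exact permutation test, p = 0.1 and 0.267, where 0.1 and 0.0667 are the smallest possible). Myh6 and Myh7 are close copies, as are Acta1 and Actc1, and STAR's gene counts leave out reads that map to several places.

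The ratio of Tnni1 to Tnni3, the embryonic over the adult troponin I, was 2.54, 2.34, 2.25, 2.07 and 1.89 in Pde2A-/- hearts and between 2.45 and 2.69 (median 2.61) in Pde2A+/+ hearts. Replicate A lay within the Pde2A+/+ range and the other 4 lay below it. The log2 ratio differed by -0.23 (p = 0.00649, adjusted p = 0.0346, exact permutation test). The mean level of Tnni1 was 24.6% lower and that of Tnni3 12.0% lower in Pde2A-/- hearts. Within the letter-named hearts the log2 difference was -0.13 and within the number-named hearts -0.35 (exact permutation test, p = 0.4 and 0.0667).

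The ratio of Myom2 to Myom1 was 0.0551, 0.117, 0.153, 0.159 and 0.165 in Pde2A-/- hearts and between 0.0329 and 0.0649 (median 0.0463) in Pde2A+/+ hearts. Replicate A again lay within the Pde2A+/+ range, and the other 4 exceeded it. The log2 ratio differed by 1.35 (p = 0.00866, adjusted p = 0.0346, exact permutation test). Within the letter-named and the number-named hearts the log2 differences were 0.81 and 1.88 (exact permutation test, p = 0.3 and 0.0667). For this ratio and for Tnni1 to Tnni3, leaving out any single heart other than Pde2A-/- replicate A ended the call, with adjusted p between 0.0571 and 0.0952 in exact permutation tests.

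The other 5 ratios did not pass, with adjusted p between 0.323 and 0.403 in exact permutation tests. The log2 differences were -0.12 for Acta1 to Actc1, 0.35 for Myl7 to Myl2, -0.18 for Myl4 to Myl3, -0.14 for Myh7b to Myh7 and 0.32 for Xirp1 to Xirp2.

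**Figure D4:**
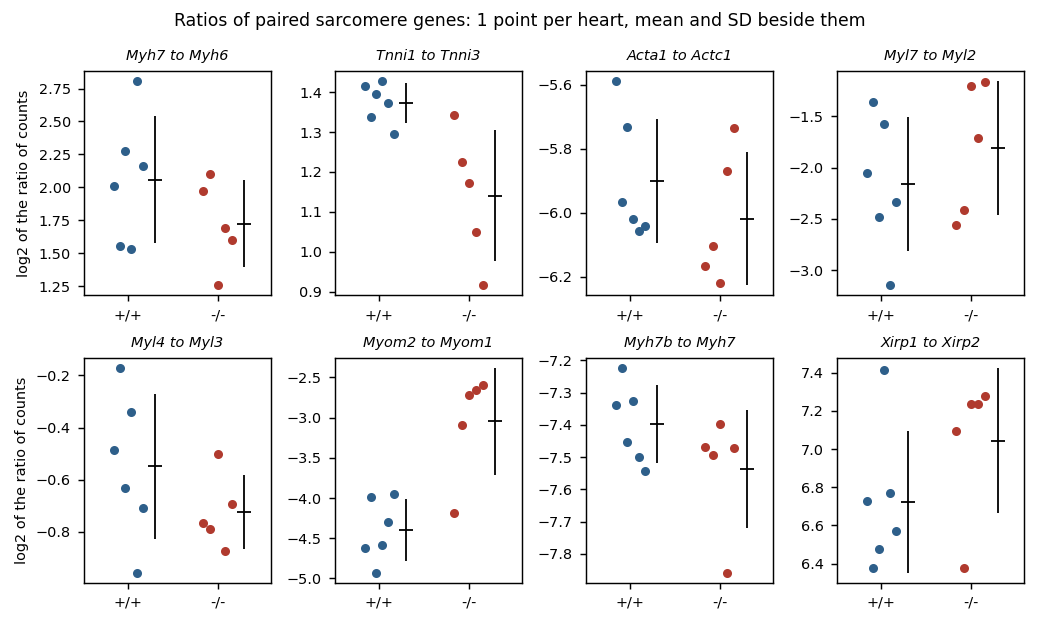
Log2 ratio of counts of 8 gene pairs (y axis, own range per panel), 1 point per heart with mean and SD, Pde2A+/+ at left and Pde2A-/- at right. In Tnni1 to Tnni3 4 of 5 Pde2A-/- hearts are below all Pde2A+/+ hearts, in Myom2 to Myom1 4 of 5 are above, and Myh7 to Myh6 overlaps.

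Promoter windows of RefSeq (GRCm38.p6, 250 bases before to 50 after the start) were at hand for 30 of the 35 members, 10 of them called lower, and for 27025 genes in all. Nexn, Tcap, Xirp1, Cryab and Myom2 had none. Motifs of factors known from muscle genes were searched on both strands. The MEF2 site was found in 3 of 10 lower members and 2 of 20 other members, against 0.636% of all windows. The SRF CArG box (CC, then 6 bases of A or T, then GG) was found in 1 of 10 lower and 6 of 20 other members, against 1.81% of all windows. TATAAA was found in none of the 10 lower and in 5 of the 20 other members (15.7% of all), AGATAA of GATA factors in 1 and 6 (12.7%), CATTCC of TEAD factors in 4 and 8 (16.6%) and TNAAGTG of NKX2-5 in 0 and 2 (13.1%). A MEF2 site (CTA, then 4 bases of A or T, then TAG) and a CArG box can each contain TATAAA. These matches describe letters in a window. The 200 bases before the start of the 3 lower members with a MEF2 site, and of Actc1, which did not pass the test and holds a CArG box, are shown so that both kinds of window can be compared. Each is 5′ to 3′ on the gene's strand, with the site in capitals, 166 to 157 bases before the start in Ttn, 90 to 81 in Mybpc3, 109 to 100 in Synpo2l and 47 to 38 in Actc1.
Ttn (chr2:76982548-76982747, minus strand): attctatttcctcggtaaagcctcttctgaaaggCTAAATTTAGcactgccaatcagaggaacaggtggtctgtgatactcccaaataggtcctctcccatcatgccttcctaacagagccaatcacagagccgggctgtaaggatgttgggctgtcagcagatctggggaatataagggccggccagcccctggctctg
Mybpc3 (chr2:91117944-91118143, plus strand): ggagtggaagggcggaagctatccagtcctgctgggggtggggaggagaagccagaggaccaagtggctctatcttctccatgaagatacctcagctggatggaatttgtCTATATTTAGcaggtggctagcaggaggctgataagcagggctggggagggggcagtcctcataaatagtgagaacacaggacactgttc
Synpo2l (chr14:20668355-20668554, minus strand): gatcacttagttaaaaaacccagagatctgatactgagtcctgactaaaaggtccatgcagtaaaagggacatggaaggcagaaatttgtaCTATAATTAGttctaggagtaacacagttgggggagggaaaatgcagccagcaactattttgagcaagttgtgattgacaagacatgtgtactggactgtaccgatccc
Actc1 (chr2:114052876-114053075, minus strand): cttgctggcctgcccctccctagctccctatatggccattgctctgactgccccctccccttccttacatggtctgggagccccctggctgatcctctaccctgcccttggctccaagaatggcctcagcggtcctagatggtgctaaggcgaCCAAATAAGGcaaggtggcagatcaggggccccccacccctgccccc

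Other genes of the pathway, from lists chosen with earlier results of these data known, are set beside the members. The counts in these and the following lists stand beside shares of 5.67% lower and 8.93% higher over all genes. Among genes at 50 CPM or more the shares were 11.1% and 14.7%. Of 24 other sarcomere and Z-disc genes 3 were lower, with a median log2 difference of -0.054, and the largest fall was Itgb1bp2 (melusin, a partner of integrin at the costamere) at -0.42 (edgeR adjusted p = 0.0182). Of 17 genes of sarcomere assembly and turnover 6 were lower and 1 was higher, with a median of -0.085. Unc45b, the chaperone that folds myosin heads, fell most, with a log2 difference of -0.45 (edgeR adjusted p = 0.00405), and Fbxo32 (atrogin-1, a ubiquitin ligase of muscle turnover) was the gene that rose, at 1.003 (edgeR adjusted p = 0.00945). Of 9 SRF and MEF2 regulators 1 was lower, Mrtfa, a coactivator of SRF, at -0.26 (edgeR adjusted p = 0.0159), with a median of -0.055.

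Lists of related tissues give the setting of these values. Of 18 skeletal muscle genes Tnnt1, the slow skeletal troponin T, was lower at -0.41 (edgeR adjusted p = 0.0199) and Tnnt3, the fast one, was higher at 1.36 (edgeR adjusted p = 0.0435), exceeding all Pde2A+/+ hearts in 2 of 5 Pde2A-/- hearts (5.77 to 23.7 CPM against 2.01 to 9.85 CPM). The summed level of the skeletal list was 397, 641, 389.9, 521 and 378 CPM in Pde2A-/- replicates A, B, 14, D and 15. It was 459.9 to 559.9 CPM in Pde2A+/+ hearts. Replicate B was above that range, replicate D within it, and replicates A, 14 and 15 below it. Most of the sum was Tnnt1, at a mean of 279 CPM against 371 CPM. Of genes named after their values were seen, Myh3, Myh8, Tnnc2, Mylpf, Mybpc1, Myog and Myod1 each topped the Pde2A+/+ maximum in 2 Pde2A-/- hearts. Myh3 reached 86.7 CPM against 16.7 CPM and Myh8 40.0 CPM against 8.60 CPM. Tnni2, Myh1 and Mybpc1 fell under the minimum in 2, and Myh3, Myh8, Mylpf, Myog and Myod1 in 1. None of the genes so named passed the test. Any link between these levels and that of Myom2 was not tested. Of 9 smooth muscle genes 2 were lower, most of all Cnn1 (calponin) at -0.38 (edgeR adjusted p = 0.0366), and of 10 genes of the nonmuscle cytoskeleton 2 were higher, most of all Actg1 at 0.36 (edgeR adjusted p = 0.0355). Of 21 cardiomyocyte genes outside the sarcomere 1 was lower, the transcription factor Nkx2-5 at -0.27 (edgeR adjusted p = 0.0103), and 1 was higher, the calcium-binding Hrc at 0.25 (edgeR adjusted p = 0.0338). Their median was -0.040, and their summed level overlapped between genotypes, 10642 to 11865 CPM in Pde2A-/- hearts and 9996 to 12986 CPM in Pde2A+/+ hearts. With counts scaled to these 21 genes the members' median was -0.15 and 11 members were lower. Over all genes tested that scaling gave 191 lower and 1447 higher genes, in place of 1372 and 2160.

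**Figure D5:**
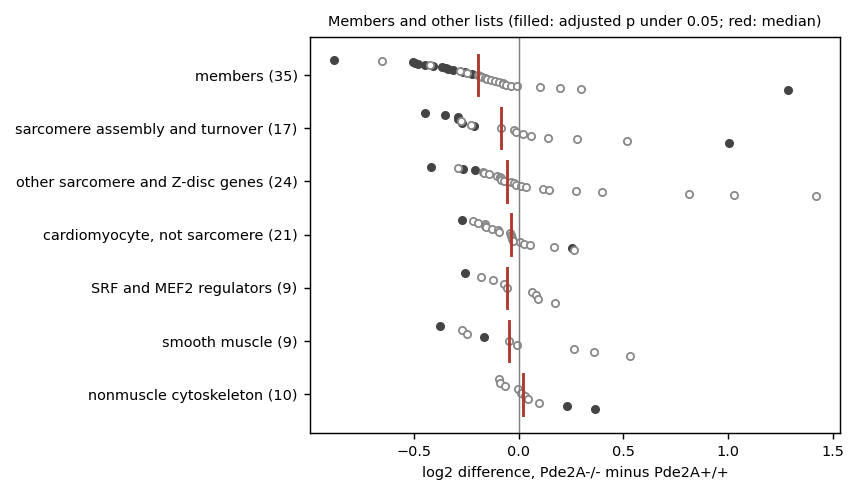
Log2 difference between genotypes (x axis) of every tested gene in the members and 6 other lists (rows, number of genes in brackets), filled for an edgeR adjusted p under 0.05, with a red bar at each median. The members' median of -0.19 lies left of that of the cardiomyocyte genes outside the sarcomere at -0.040.

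Some markers of other cells and of heart compartments also differed between genotypes. Over all genes tested 5.67% were lower and 8.93% were higher, and among genes at 50 CPM or more 11.1% and 14.7%. Of 5 trabecular markers 1 was higher, Bmp10, a growth factor of the trabeculae, at 1.88 (edgeR adjusted p = 0.000532). It was at 219 to 515 CPM in Pde2A-/- hearts and 70.1 to 164 CPM in Pde2A+/+ hearts. The summed trabecular level was 647 to 887 CPM against 438 to 570.4 CPM, also without overlap. That sum includes Bmp10, at a mean of 395 CPM against 107 CPM. The other trabecular markers did not pass, with log2 differences of -0.14 to 0.095. The 5 markers of compact and ventricular myocardium had log2 differences of -0.32 to 0.34, and their summed level overlapped (1108 to 1291 CPM against 1056 to 1564 CPM). Of 12 macrophage markers 11 were higher, with a summed level of 275 to 341 CPM in Pde2A-/- hearts and 145 to 213 CPM in Pde2A+/+ hearts, and none was at 0 throughout. The largest rise was Pf4, a chemokine gene, at 1.24 (edgeR adjusted p = 0.000326), and Fcgr1, C1qb and C1qc also passed a fold of 2.

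Of 10 endothelial markers 4 were higher (1526 to 1643 CPM against 1219 to 1448 CPM), most of all the VEGF receptor Flt1 at 0.72 (edgeR adjusted p = 0.00389). Of 9 fibroblast markers 4 were higher (7279 to 11764 CPM against 6147 to 11273 CPM), most of all Postn (periostin) at 0.42 (edgeR adjusted p = 0.00484). Of 7 epicardial markers 1 was lower, Tbx18 at -0.31 (edgeR adjusted p = 0.0466). The other epicardial markers had log2 differences above 0, from 0.063 to 0.57, and did not pass. The median of the epicardial list was 0.22, and its summed level overlapped (309 to 517 CPM against 250 to 536 CPM). Of 11 erythroid markers 5 were higher and 1 was lower. Among those higher, Slc4a1, Klf1, Epb42 and Hemgn rose by 2.81 to 4.94 on the log2 scale without overlap between genotypes. The largest rise was Hemgn, a nuclear protein of red cell precursors, from a mean of 1.54 to one of 47.9 CPM, at 4.94 (edgeR adjusted p = 6.42e-06), and the gene that fell was the adult globin Hbb-bt at -1.43 (edgeR adjusted p = 0.0105). The summed erythroid level, mostly globins, overlapped (5747 to 8968 CPM against 4525 to 16195 CPM), and leaving the erythroid genes out before scaling left 13 members lower. The part of the other cell types and compartments in the members' values was not tested.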

How the data were processed

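Total RNA of 11 embryonic hearts was made into stranded mRNA libraries (NEBNext Ultra II) and read from one end on a NextSeq 500. The authors aligned them with STAR to GRCm38 (mm10, per the submitters' processing notes) and deposited raw read counts per gene for each heart. The version of STAR and its annotation are not given in the sources used here. The counts of the reverse strand were used. Reads not assigned to a single gene (19.6% to 22.4%) were left out of library sizes. These include unmapped, multimapping and ambiguous reads besides those on no gene. Groups came from the sample titles.

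The members and lists were chosen with earlier results of these data known. Counts were fitted over all 24177 genes that had 10 or more counts summed over the 11 hearts, with TMM scaling and edgeR's quasi-likelihood test (edgeR 4.0.16, R 4.3.3), genotype as the only term and Benjamini-Hochberg adjustment over all genes. DESeq2 1.42.0, which the study used, and limma 3.58.1 with voom were alternatives. The steps were tested on simulated data. CPM are counts per 1000000 reads of the TMM-scaled library, and levels per kilobase used merged exon length in GENCODE M21, which named 55141 of 55487 identifiers. Ratios were tested by exact permutation with scipy 1.17.1. Ahsp and Myl12b, which matched no single identifier, were left out of the lists. Every member is described. Values per heart are given for members past an adjusted p of 0.05, for the genes of the ratios Myh7 to Myh6 and Tnni1 to Tnni3, and for the 3 members with the highest level per kilobase. Of another list, at most the genes with the largest rise and fall past the test and those also past a fold of 2 are named, and genes outside this rule are marked. Other scalings, filters, strands, covariates and thresholds, and leaving out each heart, were tried, and 2 alternatives were added after seeing the data: scaling to the 21 cardiomyocyte genes and the background of genes at 50 CPM or more.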

Additional observations from a re-analysis of the deposited data

Results flagged for a closer look

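Of 86 sets of hearts of 1 genotype examined for a heart far from the others (35 genes and 8 ratios in each genotype), 5 held one by Dixon's criterion, and chance gives about 1 in 20. Myh7 was at 16016 CPM in Pde2A-/- replicate 15, above the other 4 hearts of its genotype. Csrp3 was at 754 CPM in Pde2A+/+ replicate 6, above the other 5. Xirp2 was at 3.21 CPM in Pde2A-/- replicate B, above the other 4, and the log2 ratio of Xirp1 to Xirp2 was 6.38 in the same heart, below the other 4. The log2 ratio of Myh7b to Myh7 was -7.86 in Pde2A-/- replicate D, below the other 4. No cause of these values was tested.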

How the results depend on the processing

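The members' median stayed below 0 under every setting run, between -0.23 and -0.15. The 13 members called lower became 10 to 18 when single hearts were left out and 11 to 18 under other tools, scalings, filters, strands and covariates. They became 5 at an adjusted p under 0.01, 1 with a fold of at least 1.5 as well as an adjusted p under 0.05, and 0 with a fold of at least 2, since the lowest log2 difference was -0.88. Over all genes tested, 1372 were lower and 2160 higher, and these became 414 to 2165 and 1288 to 2887 when single hearts were left out, 2354 and 2791 with DESeq2, and 191 and 1447 when scaled to the cardiomyocyte genes. Members called higher were 2 in place of 1 with naming style as a covariate, the added gene being Myh6. The log2 difference of Tnni1 to Tnni3 was -0.21 and that of Myom2 to Myom1 1.73 by medians, neither past the threshold (adjusted p = 0.0519, exact permutation test). When single hearts were left out they ranged from -0.28 to -0.18 and from 1.23 to 1.63, and passed only without Pde2A-/- replicate A. Within the letter-named or the number-named hearts no p can pass. Within the letter-named hearts Tnni1 to Tnni3 was -0.13 and Myom2 to Myom1 0.81, within the number-named hearts they were -0.35 and 1.88, and Acta1 to Actc1 and Myl4 to Myl3, which were -0.12 and -0.18 over all hearts, were 0.0026 and 0.023 within the letter-named hearts.

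Of the results for single members under another setting, 755 kept their direction and side of the threshold, 23 passed newly (7 for Tnni3, 5 for Myl2, 4 for Myl3, 3 each for Tnnt2 and Xirp2 and 1 for Myh6), 14 no longer passed and 13 changed sign. The changes of sign were in 4 genes near 0. Myl7 was 0.062 with naming style as a covariate. Nexn was 0.000354 with no filter on low counts, 0.014 with naming style and 0.038 with Xist as a covariate, 0.034 when scaled to the cardiomyocyte genes, and -0.11 to 0.059 when single hearts were left out. Actc1 ranged from -0.087 to 0.027 and Lmod2 from -0.16 to 0.012 when single hearts were left out. The cause of these changes was not tested. No paired analysis was possible because the 2 genotypes share no replicate name. Litter and batch of single hearts are not given, nor is sex, though Xist as a covariate left 13 members lower and 1 higher. Whole-heart RNA does not separate cardiomyocytes from other cells.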
